A study of Mus musculus with 3 samples.

Results

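In untreated brown preadipocytes 725 ZFP410 peaks had their summit at an end of a protein-coding gene, and 435 of them (60.0%, 95% Wilson interval 56.4 to 63.5) met a ZFP410 peak of induced cells. These 435 kept gene-end sites are the subject here. A site was selected on the deposited peak lists themselves: an untreated ZFP410 peak on chromosomes 1 to 19 or X that overlapped an induced ZFP410 peak by at least 1 bp, overlapped no IgG peak, and had its summit within 1 kb of the first or last base of a protein-coding gene. Of all 3126 untreated peaks on those chromosomes 46.6% overlapped an induced peak and no IgG peak. The overlap, the strength of a peak and its place at a gene end thus chose the sites, and those values are given as a description with no test.

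The induced cells were brown preadipocytes kept for 3 days in brown adipocyte differentiation medium and profiled with a ZFP410 antibody. The untreated cells were the same kind of cells without that medium, profiled with the same antibody, and the last library used control IgG on untreated cells. All cells were Lin−CD29+CD34+Sca1+ precursors sorted from the brown fat of male wild-type C57BL/6 mice, with no deleted or added gene in the labels, which give neither the age nor the number of the mice. With 1 library per group there is no replicate check on any difference, and no p-value is given. Intervals of shares and ratios cover counting error only, and the rank interval of a median covers the spread between sites only. CUT&Tag, the assay used, tethers a transposase to an antibody on chromatin so that DNA near the bound protein is cut and tagged. It measures no expression, so marker genes could not check the cell type. The lists held 7475 induced ZFP410, 3256 untreated ZFP410 and 480 untreated IgG peaks, and no IgG control of induced cells is used here.

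ZFP410 is a zinc finger protein that binds DNA. In other cell types it is known for binding clusters of its motif at Chd4, the gene of the ATPase that drives the NuRD complex, a chromatin remodeller linked to gene repression. Promoters of broadly expressed genes usually lie in GC-rich stretches of open chromatin and carry boxes for general promoter factors, among them the CCAAT box, the GC box and the ETS motif. Brown preadipocytes are the precursors of thermogenic fat cells, and differentiation medium starts their conversion.

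7 promoters that held a kept summit are shown, chosen for the motif matches in their windows and not as typical of the kept sites. Each is 250 bases before to 50 bases after an annotated transcript start, taken from RefSeq (assembly GRCm38.p6, the coordinates of mm10) and read 5′ to 3′ along the gene. Chd4 and Tufm, which encodes the mitochondrial elongation factor Tu, are shown because they held the core of the ZFP410 motif, in capitals as ATTATGGG, the reverse complement of CCCATAAT.
Chd4, chr6:125095731-125096030, plus strand: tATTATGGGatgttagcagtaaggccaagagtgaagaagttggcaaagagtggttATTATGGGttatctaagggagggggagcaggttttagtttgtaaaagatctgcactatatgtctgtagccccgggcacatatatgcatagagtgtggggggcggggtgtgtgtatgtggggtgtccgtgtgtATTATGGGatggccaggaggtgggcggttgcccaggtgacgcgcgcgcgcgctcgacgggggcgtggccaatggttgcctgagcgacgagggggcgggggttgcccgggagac
Tufm, chr7:126487105-126487404, plus strand: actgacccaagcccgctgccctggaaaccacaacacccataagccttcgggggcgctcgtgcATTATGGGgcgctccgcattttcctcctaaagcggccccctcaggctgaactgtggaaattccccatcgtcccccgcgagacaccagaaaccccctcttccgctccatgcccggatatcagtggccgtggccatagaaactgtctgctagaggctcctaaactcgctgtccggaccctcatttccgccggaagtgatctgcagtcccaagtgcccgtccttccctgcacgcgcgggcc
Ska2, which encodes a kinetochore protein and carried the site of most untreated fragments, and Stip1, whose product couples the Hsp70 and Hsp90 chaperones and which carried the site of most induced fragments, are shown for their repeated CCAAT boxes, in capitals.
Ska2, chr11:87109011-87109310, plus strand: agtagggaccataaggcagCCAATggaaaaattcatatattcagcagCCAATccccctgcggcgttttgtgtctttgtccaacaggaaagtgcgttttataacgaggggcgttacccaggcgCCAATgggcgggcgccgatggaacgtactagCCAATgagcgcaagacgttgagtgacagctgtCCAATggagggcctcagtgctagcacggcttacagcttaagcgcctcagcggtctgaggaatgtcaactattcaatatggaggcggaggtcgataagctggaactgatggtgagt
Stip1, chr19:7039977-7040276, minus strand: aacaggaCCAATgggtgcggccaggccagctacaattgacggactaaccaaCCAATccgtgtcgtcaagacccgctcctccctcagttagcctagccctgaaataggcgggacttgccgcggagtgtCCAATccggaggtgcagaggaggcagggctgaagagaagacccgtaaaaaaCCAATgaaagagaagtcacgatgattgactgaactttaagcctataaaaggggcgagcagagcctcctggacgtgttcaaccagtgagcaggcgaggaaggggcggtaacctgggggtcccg
Hspa1a, a gene of inducible Hsp70, is shown for its heat shock element, GAANNTTC, in capitals.
Hspa1a, chr17:34972107-34972406, minus strand: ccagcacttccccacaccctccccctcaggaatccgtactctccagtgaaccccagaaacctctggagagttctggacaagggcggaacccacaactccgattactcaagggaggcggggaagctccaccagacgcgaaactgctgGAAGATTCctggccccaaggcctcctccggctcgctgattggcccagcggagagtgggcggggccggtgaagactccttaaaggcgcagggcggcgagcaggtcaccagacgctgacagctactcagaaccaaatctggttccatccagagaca
Plekha4, which shares its site and start region with the stress gene Ppp1r15a, and Nup133, which encodes a nuclear pore protein, are shown for the cyclic AMP response element TGACGTCA, in capitals.
Plekha4, chr7:45526080-45526379, plus strand: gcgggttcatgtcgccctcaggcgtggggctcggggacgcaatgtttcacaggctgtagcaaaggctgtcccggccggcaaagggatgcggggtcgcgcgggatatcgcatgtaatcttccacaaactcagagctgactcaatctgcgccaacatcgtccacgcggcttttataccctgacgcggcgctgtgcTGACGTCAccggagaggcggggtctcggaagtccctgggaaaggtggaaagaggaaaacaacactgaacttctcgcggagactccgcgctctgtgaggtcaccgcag
Nup133, chr8:123949216-123949515, minus strand: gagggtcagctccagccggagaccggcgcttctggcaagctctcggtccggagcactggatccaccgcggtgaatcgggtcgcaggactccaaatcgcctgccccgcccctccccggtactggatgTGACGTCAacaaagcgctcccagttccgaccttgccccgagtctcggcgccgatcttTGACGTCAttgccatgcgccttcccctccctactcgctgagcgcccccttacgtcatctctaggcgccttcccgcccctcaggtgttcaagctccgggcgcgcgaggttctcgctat

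In these windows Chd4 held 3 motif cores, beginning 249, 195 and 63 bases before the start, and an untreated summit 48 bases before it. Tufm held 1 core 188 bases before the start, with the summit 53 bases before it. Ska2 held 5 CCAAT boxes, the outermost 231 and 65 bases before the start, and Stip1 held 4, the outermost 243 and 72 bases before it. The summits lay between those outer boxes, 102 bases before the start at Ska2 and 146 bases before it at Stip1. The Hspa1a summit was 59 bases before the start and its heat shock element began 104 bases before it. At Plekha4 the summit was 59 bases before the start, and the response element began 57 bases before it. At Nup133 the summit was 114 bases before the start, and the response elements began 124 and 67 bases before it. The Tufm core and the Nup133 element nearer the start lay outside the untreated peaks of those genes. A match in letters is a description of the sequence and not a measured binding site.

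Gene-end peaks were kept more often than other untreated peaks over the full list. The lead over gene bodies was largest among weak peaks. Strength is given as summit fragments, the number of sequenced fragments piled up at the summit, recovered from the deposited fold and −log10 p-value. The kept share was 60.0% at gene ends, against 44.9% (504 of 1122, 42.0 to 47.8) inside genes and 40.5% (518 of 1279, 37.8 to 43.2) between genes. Among peaks of 3 fragments, 32.9% were kept at gene ends (49 of 149, 25.9 to 40.8), against 11.3% inside genes and 10.6% between genes. Among peaks of 4 fragments the shares were 51.3% at gene ends, 33.1% inside genes and 30.6% between genes. From 5 fragments upward the gene-end and gene-body intervals overlapped, with 60.9% kept at gene ends and 50.3% inside genes for 5 fragments, 75.4% at gene ends and 68.9% inside genes for 6 to 7, and 93.9% at gene ends and 91.9% inside genes for 8 to 10 fragments. Among peaks of 11 or more fragments the shares were 95.6% at gene ends, 90.3% inside genes and 58.8% between genes, where 34 of the 102 peaks overlapped an IgG peak and so could not count as kept. With a −log10 q of at least 5 required in both lists, the shares were 74.3% at gene ends, 74.2% inside genes and 69.6% between genes, so at that threshold the gene-end share was close to that inside genes. With a fold of at least 5 in both lists they were 69.5%, 67.8% and 68.3% in the same order.

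**Figure D1:**
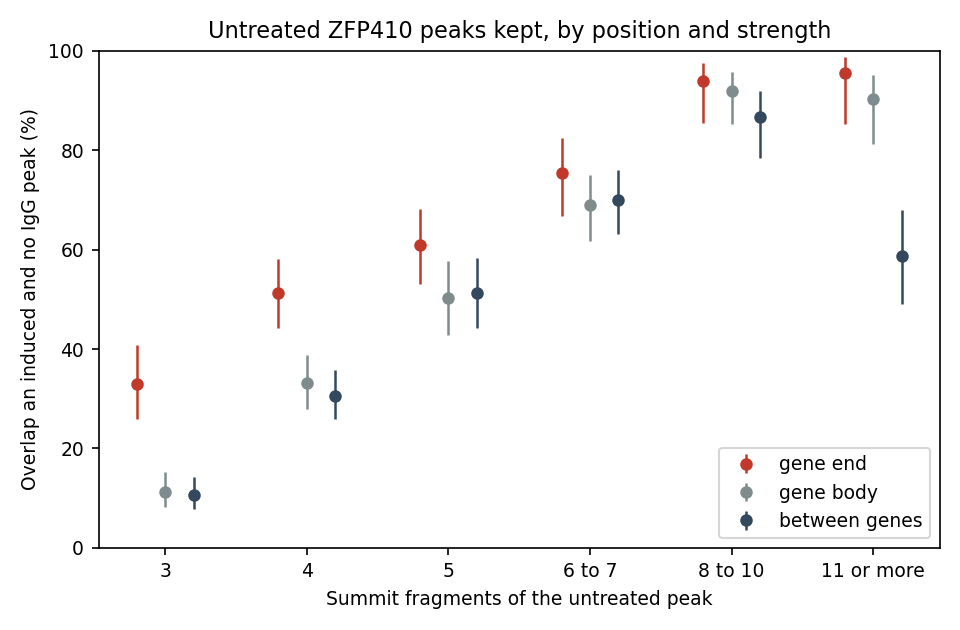
Share of untreated ZFP410 peaks that overlapped an induced and no IgG peak (y axis, percent) by summit fragments of the untreated peak (x axis), for peaks at gene ends, inside genes and between genes; bars are 95% Wilson intervals. At 3 fragments 32.9% of gene-end peaks were kept, against 11.3% inside genes and 10.6% between genes, while at 8 to 10 fragments the gene-end and gene-body shares were 93.9% and 91.9%.

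The kept sites were mostly weak peaks with a broad strong tail. Their untreated summits held 3 to 27 fragments with a median of 5, and 244 of the 435 held 5 or fewer, while 54 held 10 or more. The induced partner peaks held 4 to 104 fragments with a median of 10. The induced library had a genome background of 0.246 fragments, against 0.110 in the untreated library, a factor of 2.24, so equal enrichment puts 2.24 times as many fragments in the induced summit. For 362 of the 435 sites the local background stayed within 2 times the genome-wide level in both libraries. No gene-end peak of untreated cells overlapped an IgG peak, so the IgG condition removed none. At the enrichment of the untreated library, the median site would have held 1.05 IgG fragments and the strongest 5.66, and 18 sites would have held at least 3, while the weakest IgG peak in the list held 2. The absence of an IgG peak therefore bears on few of the sites one by one. The nearest IgG peak to any site was 4810 bp away, at Mid1.

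Each kept site was paired with its induced partner peak, and summits mostly coincided. The 435 sites met 422 induced peaks. Over the 422 pairs the induced peak had a median width of 401 bp, against 238 bp for the untreated one, and was the wider of the pair in 344. The summits were a median of 63 bp apart, within 50 bp in 181 pairs and within 100 bp in 282, and over 500 bp apart in 1. Shared peaks inside genes, at 56.0 bp, and between genes, at 56.0 bp, had similar median distances between summits. The induced summit lay within 1 kb of the same gene end at 432 of the 435 sites, the exceptions being Srsf5, Spaca6 and Trim45.

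Of the induced peaks, 11 spanned more than 1 kept site, 24 sites in all. The widest example was Chd4, where 1 induced peak (chromosome 6, 125094137 to 125097554, mm10) with 52 fragments covered 4 untreated peaks of 10, 8, 7 and 4 fragments. At Hspa1b 1 induced peak of 37 fragments (chromosome 17, 34958977 to 34960369) covered untreated peaks of 21 and 12 fragments, with the induced summit on the same base as the stronger of them. At Stip1 the induced peak covered untreated peaks of 18 and 3 fragments, and at Cry2 peaks of 7 and 4. The others were at Btbd19 with Tctex1d4, Rtn4, Eny2 with Nudcd1, Npcd with Cbx6, Mlec, Stx16 and Mxd3. Separate induced peaks stood at Nupr1, whose product is a stress-induced regulator of transcription, and 1 overlapped each of its untreated peaks, with 41 induced and 14 untreated fragments at one and 33 induced and 10 untreated fragments at the other. Sites under one induced peak were not counted as separate pairs: that peak was paired with the strongest of them.

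At most kept sites the interval of the enrichment ratio included 1. The median log2 ratio of enrichment, induced over untreated, was −0.29 (95% rank interval −0.36 to −0.16), with quartiles of −0.68 and 0.18. For shared peaks the median was −0.16 inside genes (−0.32 to −0.16) and −0.16 between genes (−0.29 to −0.16). Both intervals overlapped that of the kept gene-end sites. Over all 1413 shared pairs the median was −0.23. Scaled by the relative depth of the libraries, a factor of 2.01 that assumes the same control for both lists, the median of the kept gene-end sites was −0.14. A site entered only if it was called in both lists, so the ratios do not sample sites free to be lost.

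Of the 422 pairs, 5 (1.18%) had a 95% interval of the ratio above 1, where 1.91% of all 1413 shared pairs did. A further 6 (1.42%) had an interval below 1, where 1.63% of all pairs did. Both shares were near those of all shared peaks, so the count of such sites is no result about gene ends. The individual sites follow as measurements of 2 libraries.

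Stip1 had the most fragments of all kept sites in the induced library, 104, against 18 in the untreated library, with its untreated peak at 7040007 to 7040485 on chromosome 19. That is a ratio of 2.58 (1.55 to 4.52). Slc6a6, the taurine transporter gene (chromosome 6, 91683837 to 91684302), had 35 induced and 5 untreated fragments, a ratio of 3.12 (1.22 to 10.2). Cry2, which encodes a cryptochrome of the repressing arm of the circadian clock (chromosome 2, 92434099 to 92434412), had 41 induced and 7 untreated fragments, a ratio of 2.61 (1.16 to 6.91). At Chd4 the pair of 52 induced and 10 untreated fragments gave a ratio of 2.32 (1.17 to 5.12), with the untreated summit 675 bp before the first base of the gene and the induced summit 12 bp from it, both outside the window printed above. Mon1b, whose product acts in late endosome traffic, had 50 induced and 11 untreated fragments, a ratio of 2.03 (1.04 to 4.32), but its local background was 7.72 fragments in the induced and 0.975 in the untreated library, a wider gap than at the genome level.

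Among the sites with an interval below 1, Xpot, which encodes the nuclear exporter of tRNA (chromosome 10, 121626152 to 121626627), had 4 induced and 8 untreated fragments, a ratio of 0.223 (0.0492 to 0.833). The site shared by Slc39a6, a zinc transporter gene, and Elp2, an Elongator subunit gene, had 6 induced and 10 untreated fragments, a ratio of 0.268 (0.0800 to 0.813). Ncoa4, whose product delivers ferritin to autophagy, had 6 induced and 9 untreated fragments, a ratio of 0.298 (0.0872 to 0.936). The site shared by Slc5a3, the myo-inositol transporter gene, and Mrps6 held the same numbers. Hsbp1l1 had 9 induced and 11 untreated fragments, a ratio of 0.365 (0.134 to 0.969). A site at LOC108167694 and the predicted gene Gm20783 had 30 induced and 24 untreated fragments, a ratio of 0.558 (0.315 to 0.997), on local backgrounds of 7.31 fragments in the induced and 3.64 in the untreated library. Scaled by depth, only Xpot and Slc39a6 with Elp2 of these 6 kept an interval below 1, while all 5 sites above 1 stayed above it.

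**Figure D2:**
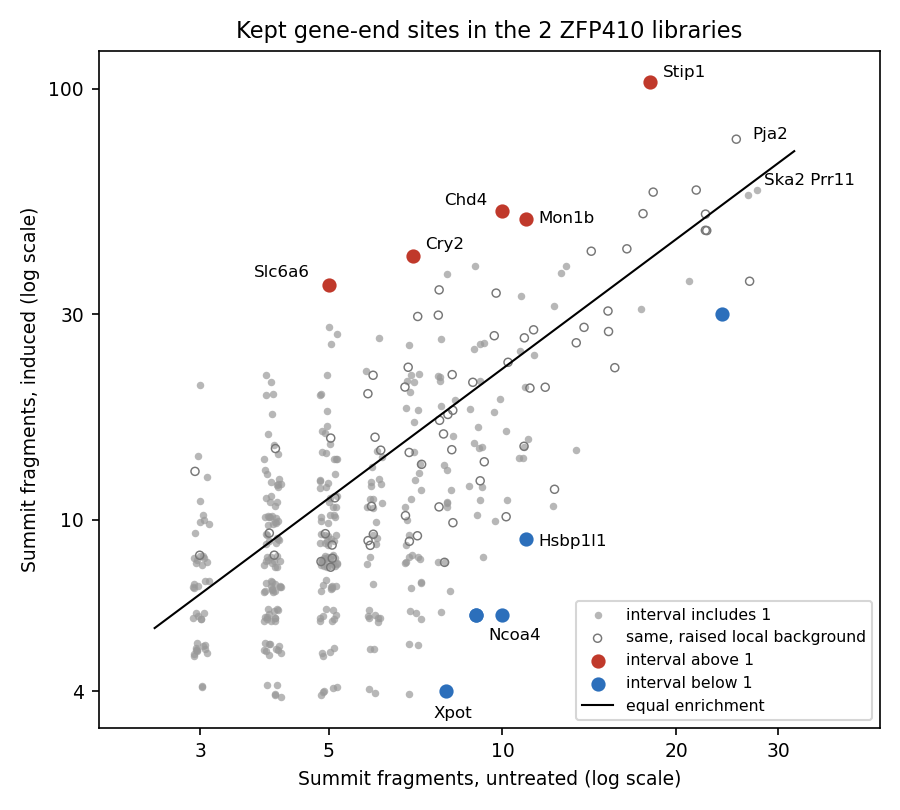
Summit fragments of the 422 pairs in the induced library (y axis, log scale) against the untreated library (x axis, log scale); the line marks equal enrichment at a factor of 2.24, red and blue points have 95% intervals of the ratio above and below 1, open circles have raised local background, and grey and open points are shifted slightly at random so that equal values can be seen. Stip1, at 104 induced and 18 untreated fragments, is the highest point, and Slc6a6, at 35 and 5, lies farthest above the line among the red points.

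Among the 15 sites of most untreated fragments, Stip1 and the site at LOC108167694 and Gm20783 had intervals of the ratio that excluded 1, on opposite sides, as given above. The site shared by Ska2 and Prr11, a gene active in the cell cycle (chromosome 11, 87108752 to 87109299), had 59 induced and 27 untreated fragments, a ratio of 0.975 (0.609 to 1.60). Mrpl45, a mitochondrial ribosomal protein gene (chromosome 11, 97315547 to 97316262), had 55 induced and 26 untreated fragments, with its untreated summit 798 bp from the first base of the gene and 5 bp from an annotated transcript start. Txn1, which encodes the redox protein thioredoxin (chromosome 4, 57956225 to 57956816), had 50 induced and 22 untreated fragments, a ratio of 1.01 (0.603 to 1.76). All 3 ratios lay within counting error of 1.

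Other strong sites likewise had intervals of the ratio that included 1. Pgam1, a glycolytic enzyme gene, had 58 induced and 18 untreated fragments, a ratio of 1.44 (0.835 to 2.59). Acaa1a, which encodes the thiolase of peroxisomal fatty acid oxidation, had 31 induced and 17 untreated fragments, a ratio of 0.814 (0.437 to 1.57). Orai2, a store-operated calcium channel gene, had 51 induced and 18 untreated fragments. Slc38a2, a neutral amino acid transporter gene, had 46 induced and 22 untreated fragments on local backgrounds of 8.13 and 1.03 in the same order, and a second kept site nearer its start with 10 induced and 5 untreated fragments. Pja2, a ubiquitin ligase gene, had 74 induced and 26 untreated fragments on raised backgrounds of 4.37 and 1.95 in the same order. Mid1, with 35 induced and 26 untreated fragments, stood on backgrounds of 8.53 and 4.25 in the same order and ranked 7212 of the induced list by the authors' fold. Ankhd1, with 47 induced and 22 untreated fragments, had a ratio of 0.954 (0.563 to 1.66).

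Kept sites stood at 11 of 53 heat shock and chaperone genes (20.8%), where 2.29% of the 21631 protein-coding genes (496 genes) had one, and at 6 of the 13 genes whose symbol begins with Hspa (46.2%). The lists were composed with earlier results of these data known, and no enrichment was tested. Hspa1b had 37 induced and 21 untreated fragments at its stronger site, a ratio of 0.786 (0.448 to 1.41), with both summits 892 bp before the start. Hspa1a and Hspa1l, which share a site, had 38 induced and 13 untreated fragments, a ratio of 1.30 (0.680 to 2.67). The promoters of Hspa1a and Hspa1b were identical at 296 of 300 bases. That window holds the summit of the weaker Hspa1b site, with 12 untreated fragments, and not that of the stronger one. How reads that match both genes were placed is not given in the sources used here, so the split between the 2 promoters is uncertain. The gene counts above take Hspa1a, Hspa1b and Hspa1l as separate genes, although Hspa1a and Hspa1l share a site, and so may exceed the number of separate signals. Sequence at the stronger Hspa1b site was not compared. Further chaperone sites were weaker: Dnaja1 with Aptx had 21 induced and 8 untreated fragments, Dnajb1 had 11 and 6 in the same order, Hspa8, the constitutive Hsp70 gene, had 9 and 6, Hspa2 had 6 and 7, and Hsp90ab1 had 5 and 3. Bag1 and Hspa4l completed the list, and of its 11 genes Stip1 alone had an interval of the ratio that excluded 1.

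Clock genes carried kept sites at 5 of 18 (27.8%), where 2.29% of all coding genes had one, and no enrichment was tested. Per1, a repressor of the clock (chromosome 11, 69094535 to 69095116), had 60 induced and 22 untreated fragments, a ratio of 1.22 (0.736 to 2.08). Bhlhe40, whose product represses the clock activators, had 16 induced and 6 untreated fragments. Nr1d1, which encodes the nuclear receptor Rev-erb alpha, had 12 induced and 6 untreated fragments, and Ciart had 9 induced and 7 untreated ones. Cry2, given above, was the clock gene whose interval excluded 1.

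Promoter-binding transcription factors had kept sites at 6 of 31 genes (19.4%), beside 2.29% of all coding genes, again with no test. Zfp143, whose product binds many promoters near their starts (chromosome 7, 110060960 to 110062259), had 38 induced and 13 untreated fragments, a ratio of 1.30 (0.680 to 2.67). E2f3, a cell cycle regulator, had 31 induced and 15 untreated fragments, a ratio of 0.922 (0.483 to 1.84). Nfya, which encodes a subunit of the CCAAT-binding factor NF-Y and shares its site with Oard1, had 16 induced and 5 untreated fragments. Atf4, the effector of the integrated stress response, had 10 induced and 4 untreated fragments, Thap11 had 9 and 5 and Yy1 had 9 and 4 in the same order. None of these 6 had an interval of the ratio that excluded 1.

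**Figure D3:**
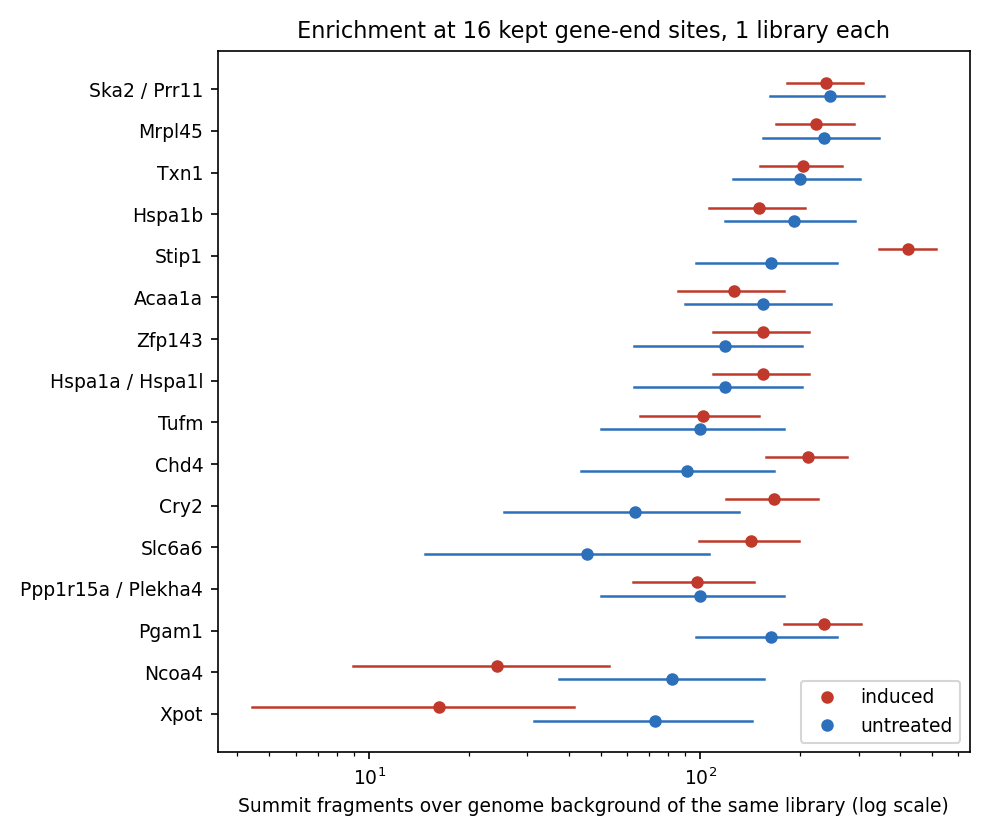
Enrichment, as summit fragments divided by the genome background of their own library (x axis, log scale), at 16 kept sites, with the induced library in red above the untreated library in blue; lines are exact 95% Poisson intervals of the fragments and cover counting error only. The induced and untreated intervals overlap at most sites, such as Ska2 with Prr11 at 59 induced and 27 untreated fragments, and are apart at Stip1 at 104 and 18.

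Cell cycle genes had kept sites at 7 of 70 genes (10.0%), where 2.29% of all coding genes had one. Beside Ska2 and Prr11, which share a site, these were Pcna, Ccna2, Bub3, Ndc80 and Ncapg. Pcna, the replication clamp gene, shares its site with Cds2 and had 13 induced and 8 untreated fragments. Ccna2, the cyclin A2 gene, had 12 induced and 8 untreated fragments. The DNA repair list had a kept site at 1 of 56 genes (1.79%), Brca1, which shares it with Nbr1, at 25 induced and 13 untreated fragments. That list is not complete, and repair genes outside it, among them Parp3, Aptx, Aplf, Rad52 and Mbd4, named after their values were seen, also had kept sites.

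Of the 15 NuRD genes, Chd4 and Gatad2a had a kept site (13.3%), Gatad2a with 11 induced and 7 untreated fragments. Mitochondrial ribosomal protein genes had 6 of 78 (7.69%), against 1 of 82 (1.22%) among cytosolic ones and 2.29% of all coding genes. The cytosolic gene was Rps21, with 19 induced and 10 untreated fragments. Of the mitochondrial ones, Mrps6, Mrps18b, Mrps7, Mrpl32 and Mrpl2 share their sites with other genes, so those sites cannot be assigned to either gene. Mrpl32 shares its site with the proteasome gene Psma2, which is counted again below. Splicing and hnRNP genes had 5 of 75 (6.67%), translation factors 4 of 54 (7.41%), tRNA synthetases 3 of 37 (8.11%), proteasome genes 2 of 47 (4.26%) and the respiratory chain 2 of 47 (4.26%). Subunits of NADH dehydrogenase had 1 of 46 (2.17%), histones 1 of 71 (1.41%) and Zfp genes 5 of 397 (1.26%), all 3 at or under the share of all genes. The list of 19 m6A methylation genes had no kept site, and a list of that length cannot show a share below that of all genes.

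Of 45 adipogenic and lipid genes 2 had a kept site (4.44%), beside 2.29% of all coding genes. Cebpa, which encodes a transcription factor of fat cell differentiation (chromosome 7, 35119132 to 35119378), had 22 induced and 6 untreated fragments, a ratio of 1.64 (0.644 to 4.93). Dgat1, whose product makes triglyceride, had 7 induced and 3 untreated fragments, a ratio of 1.04 (0.238 to 6.24). Neither ratio was apart from 1 at this depth.

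Families by the letters of the symbol were also counted, with no test, beside the 2.29% of all coding genes that had a kept site. Solute carriers had the most genes with a kept site, 15 of 375 (4%), among them Slc38a2 and Slc25a28, the second with 14 induced and 11 untreated fragments. Protein phosphatase subunits beginning with Ppp had 6 of 77 (7.79%), led in untreated fragments by Ppp1r15a. Ubiquitin genes beginning with Ube had 4 of 42 (9.52%), among them Ube2d3 with 10 induced and 9 untreated fragments and Ube2f with 23 induced and 7 untreated ones. The Dhx helicases, with 3 of 16 (18.8%), the Klf factors Klf7, Klf10 and Klf13, with 3 of 17 (17.6%), and the Nup genes Nup153, Nup133 and Nup85, with 3 of 21 (14.3%), are small families whose kept sites held 5 to 10 induced and 3 to 7 untreated fragments.

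Kept sites stood at transcript starts far more often than at transcript ends. The 435 sites made 517 links to 496 genes, 15 of them predicted. For 425 links the strand of the gene was known, and 401 of these (94.4%, 91.7 to 96.2) were to the start. The share was 87.8% (83.5 to 91.1) for untreated gene-end peaks with no induced peak and 93.0% (91.5 to 94.3) for induced gene-end peaks with no untreated one. These intervals take links as independent, although a site shared by genes makes more than 1 link, and do not allow for this. Links to a transcript end numbered 24, among them Gapdh, whose transcript end lies near Iffo1, and Mcoln1, whose end lies near the start of Pnpla6. The summit was a median of 177 bp from the gene end at kept sites, 205 bp at untreated-only sites and 162 bp at induced-only sites. Annotated transcript starts were at hand for the chromosomes of 410 pairs, but not for every gene on them. Klf10, Gem and Slc6a6, for example, had no start at hand. A summit with no such start within 1 kb therefore need not lie away from a transcript start. In each library 327 summits, not all of the same pairs, were within 1 kb of the nearest start at hand. The median position of those summits was 86 bp upstream of it for induced and 71 bp upstream for untreated summits, and 212 induced and 202 untreated summits lay upstream.

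**Figure D4:**
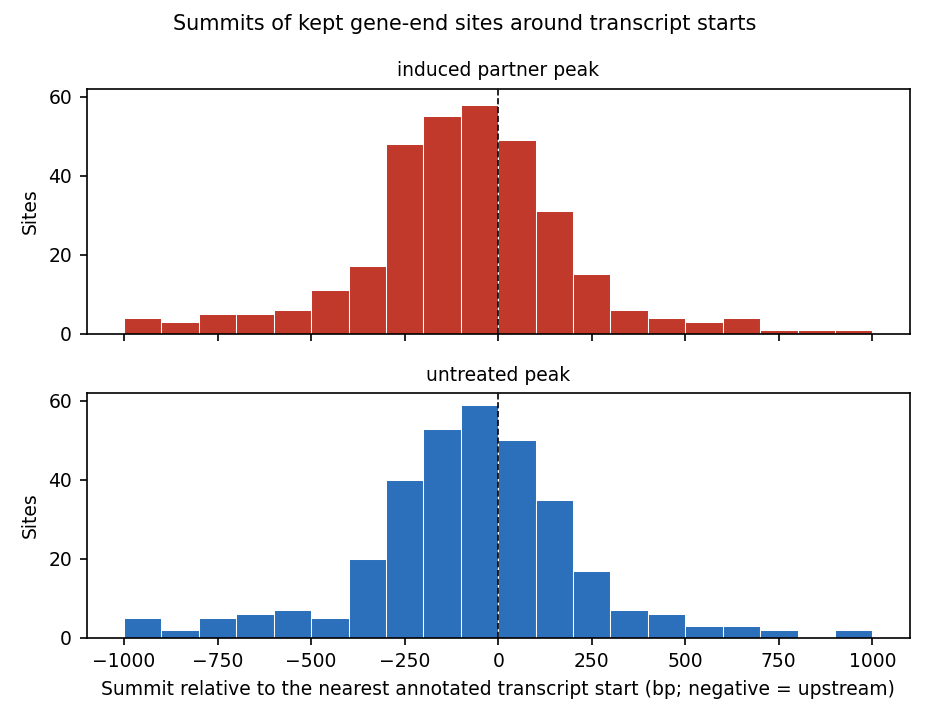
Position of the summit relative to the nearest annotated transcript start at hand (x axis, bp, negative upstream) for kept sites. The y axis gives the number of sites in bins of 100 bp, with the induced partner peaks above and the untreated peaks below. Both distributions peak just upstream of the start, with medians of −86 bp for induced and −71 bp for untreated summits.

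Peaks shared by neighbouring genes made up 81 of the 435 sites, 80 with 2 genes and 1 with 3. Of the 60 shared sites with known strands, 50 lay near starts on opposite strands, a median of 136 bp apart and within 500 bp of each other in 39. Some of these gene pairs overlap at their starts, as Btbd19 and Tctex1d4 do, and not every summit lay between the starts. A further 7 joined a start and an end, and 3 joined starts on the same strand. Of member genes bound at their start, 100 of 384 (26%) had a neighbouring start within 1 kb on the other strand, against 335 of 1050 (31.9%) of induced-only genes and 1795 of 17274 (10.4%) of all coding genes of known strand.

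Pairs with starts on opposite strands included Ska2 with Prr11, whose starts were 547 bp apart, Hspa1a with Hspa1l, also 547 bp apart, and Ppp1r15a with Plekha4, 62 bp apart. Ppp1r15a, which encodes the stress-induced subunit that directs dephosphorylation of eIF2 alpha, and Plekha4 had 24 induced and 11 untreated fragments, a ratio of 0.974 (0.459 to 2.2). Nbr1, an autophagy receptor gene, and Brca1 had starts 152 bp apart, with the untreated summit 810 bp from the outermost base of Nbr1 and 263 bp from its nearest annotated transcript start. Dtl, whose product targets replication proteins for destruction, and Ints7, an Integrator subunit gene, had starts 4 bp apart with 29 induced and 7 untreated fragments, a ratio of 1.85 (0.793 to 5.00). Parp3 with Rrp9 had 25 induced and 9 untreated fragments, and Ccdc159 with Tmem205 had 10 induced and 10 untreated fragments, a ratio of 0.446 (0.167 to 1.19). The site of 3 genes, Ampd2, Gnat2 and the predicted gene Gm12500, had 34 induced and 11 untreated fragments. Which gene of a pair a peak belongs to cannot be told apart from these data.

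Promoters that held a kept summit were GC-rich and shared the letters of general promoter boxes. A summit of a kept site fell in 204 promoter windows of 195 genes. Their median GC content was 64.0%, against 62.0% for 635 windows with an induced-only summit, 64.0% for 114 with an untreated-only summit and 56.7% for all 21045 windows. The ratio of observed to expected CpG was 0.848 at kept sites, against 0.827, 0.840 and 0.574 in the same order. All motifs were searched on both strands. Windows of neighbouring starts can overlap, as those of Ppp1r15a and Plekha4 do, so the same letters can be counted more than once. The Wilson intervals do not allow for this.

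The GC box GGGCGG was present in 82.4% of kept windows (76.5 to 87.0), against 69.9% of induced-only, 71.1% of untreated-only and 46.7% of all windows. The ETS motif CCGGAAG was present in 25.5% of kept windows (20 to 31.9), against 21.6% of induced-only, 25.4% of untreated-only and 11.7% of all windows. CCAAT was present in 46.1% of kept windows (39.4 to 52.9), against 48.5% of induced-only, 36.8% of untreated-only and 38.5% of all windows. The response element TGACGTCA was present in 8.33% of kept windows (5.27 to 12.9), against 4.41%, 4.39% and 2.26% in the same order, and its genes included Ppp1r15a, Plekha4, Nup133, Dtl, Ints7 and Ndc80. The NRF1 core GCGCATGCG was present in 4.90% of kept windows and 2.37% of all windows. GC-rich windows hold GC-rich letters more often, and the part of base composition in these shares was not tested.

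The ZFP410 motif core CCCATAAT was present in 3 of 204 kept windows (1.47%, 0.501 to 4.23), 2 of them windows of Chd4 and the third of Tufm. It was present in 1 of 635 induced-only windows (0.157%), in 0 of 114 untreated-only windows, which allows up to 3.26% by the upper Wilson bound, and in 97 of all 21045 windows (0.461%). The other letters of that motif, CATCCCAT, were found at kept sites only at Chd4, in 2 windows (0.980%), against 0.841% of all windows. At Tufm the site had 25 induced and 11 untreated fragments. The remaining 201 kept windows held no match to CCCATAAT, which says only that these letters are not in those windows. The ZNF143 core ACTACAA was in 4.90% of kept windows and 3.64% of all windows, the E-box CACGTG in 9.31% and 7.91%, the YY1 letters AAGATGGCG in 1.96% and 1.84%, the heat shock element in 5.39% and 7.27%, and the TATA box TATAAA in 6.86% and 12.7%, each pair with kept windows first.

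**Figure D5:**
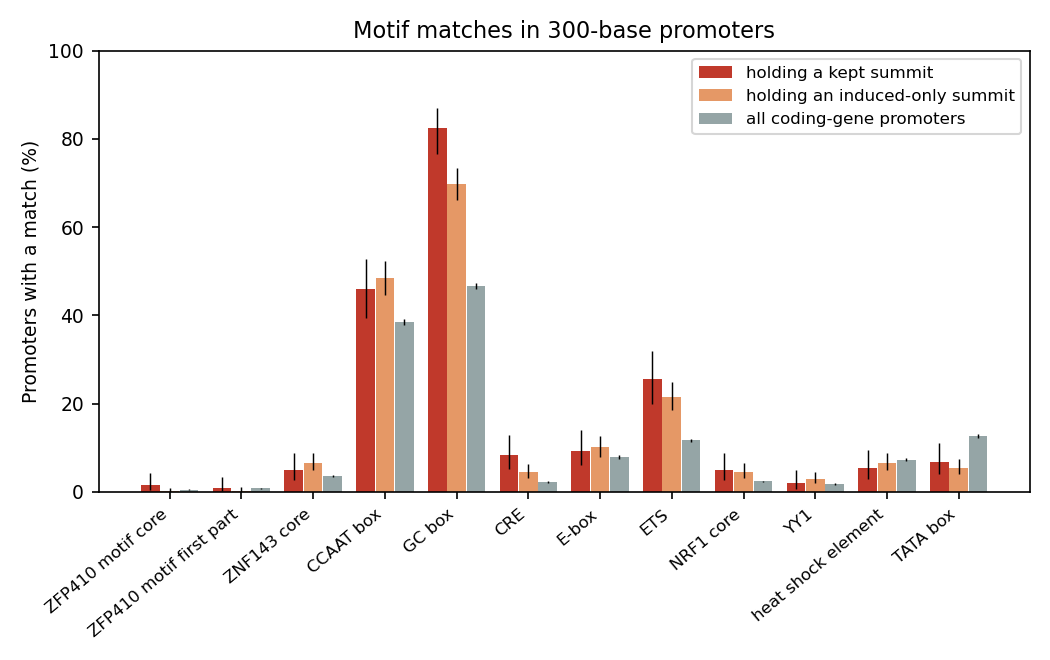
Share of 300-base promoters with a match on either strand (y axis, percent) for 12 motifs (x axis) in promoters that held a kept summit, promoters that held an induced-only summit and all promoters; bars are 95% Wilson intervals. The GC box was in 82.4% of kept, 69.9% of induced-only and 46.7% of all promoters, and the ZFP410 core in 1.47%, 0.157% and 0.461% in the same order.

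Sites near the bounds of the rule are listed for scale. Just inside the 1 kb bound were the second Nupr1 site at 953 bp, Vat1 at 954 bp and Trim45 at 986 bp, and just outside were Psmd10 at 1006 bp, Tnfrsf23 at 1007 bp and Pgs1 at 1013 bp, the last with 30 induced and 15 untreated fragments. The smallest overlaps with an induced peak were 2 bp at Eef2, 6 bp at Cnih1 and 9 bp at Junb. The smallest gaps that left a gene-end peak out were 1 bp at Flvcr1, 1 bp at Arpc3 and 5 bp at Zfp978. With overlap of at least 50% of both peaks required, 224 sites were kept, and with summits within 100 bp 283 were.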

How the data were processed

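ZFP410 binding was measured by CUT&Tag in 3 libraries, 1 per group, with groups taken from the sample labels. The submitters' processing notes name Bowtie2 2.2.6, Picard, MACS2 2.1.1 and mm10. For duplicate handling, the placing of multi-mapped reads and the caller's control, nothing is given in the sources used here. The deposited files are 1 MACS2 peak list per library, called per library with no pooling seen, and peak names carry a q threshold of 0.1. Every deposited row holds a score, a fold over local background, the −log10 p-value and −log10 q-value, and, as other information, the summit's offset in bp from the peak start.

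From fold and −log10 p the whole summit fragments and local background were recovered for 7474 of 7475 induced, 3256 of 3256 untreated and 480 of 480 IgG peaks (largest gap allowed in −log10 p 0.001). The step was also run on simulated peaks built with the same formulas. Such peaks check only that the formulas can be inverted, and not that the numbers are those the caller counted. The authors' scores and folds were used only within a list. Enrichment is summit fragments divided by the library's genome background, and relative depth was read from the steps between local background values. That reading takes both ZFP410 lists to be called against the same control, which was not checked. Ratios have exact binomial 95% intervals on the fragment pair and shares have Wilson intervals, both for counting error only. Medians have exact rank intervals, which reflect the spread between sites and not the error of the scaling or of the libraries. Each induced peak entered once, with its strongest untreated site. Gene ends came from RefSeq genes of GRCm38.p6. Strand and promoters were known for genes with an entry in the promoter table, and peak sequence outside those windows was not analysed here. Members, gene lists, families and motifs were chosen with earlier results of these data known. Named genes were the 15 sites of most untreated and of most induced fragments, sites whose ratio interval excluded 1, the 12 strongest shared sites, up to 4 genes per list and family, induced peaks over several sites and sites nearest the bounds. Tufm, Dtl with Ints7 and a few further list genes were named after their values were seen. A few sites that this rule takes are not reported here. Alternatives covered the window, the overlap, the peak threshold, the scaling and the local background. Python 3.11.15, numpy 2.4.6, pandas 2.3.3 and scipy 1.17.1 were used.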

Additional observations from a re-analysis of the deposited data

How the results depend on the processing

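No paired analysis was possible because each group held 1 library. The number of kept gene-end sites was 353 with a gene-end window of 500 bp, 509 with 2 kb and 362 with low local background in both lists (added after seeing the data), against 435. It was 224 with an overlap of at least 50% of both peaks, 283 with summits within 100 bp, 136 with a −log10 q of at least 5 and 248 with a fold of at least 5 in both lists. The kept share of gene-end peaks under those 4 settings was 30.9%, 39.0%, 74.3% and 69.5% in the same order, against 60.0%, and under the others 58.5% to 61.1%. The median log2 ratio, induced over untreated, was −0.14 scaled by relative depth, against −0.29, and −0.30 to −0.32 for the other windows, low local background and sites of at least 6 untreated fragments. Scaled by depth, 8 sites had an interval above 1 and 2 below 1, against 5 and 6. The 3 added above 1 were Srgap2 with Fam72a, Polr3b and Spen. Those no longer below 1 were Ncoa4 and Slc5a3 with Mrps6, both at 0.332, Hsbp1l1 at 0.407 and LOC108167694 with Gm20783 at 0.622. The stricter settings leave fewer peaks by construction, and the cause of the other changes was not tested. Most sites hold 5 untreated fragments or fewer, so single ratios are wide.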

Other observations

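Stress genes outside the chaperones were counted in lists composed after the names of the kept sites had been seen, so the counts support nothing. Of 30 genes of the unfolded protein and integrated stress responses 8 had a kept site (26.7%), where 2.29% of all coding genes had one. Eif2ak3, which encodes the kinase PERK, had 20 induced and 5 untreated fragments, a ratio of 1.79 (0.650 to 6.09). Eif2s1, which encodes the alpha subunit of eIF2, shares its site with Atp6v1d and had 11 induced and 6 untreated fragments. Dnajc3, whose product inhibits PERK, had 6 induced and 6 untreated fragments, and the disulfide isomerase genes Pdia3 and Pdia4 had 6 induced and 5 untreated and 5 induced and 3 untreated fragments. Of 28 immediate early genes 4 had a kept site (14.3%), Gem, Klf10, Fosb and, at its transcript end, Junb. Gem had 21 induced and 8 untreated fragments. Of 18 glycolysis genes 3 had one (16.7%), Pgam1, Pkm at 12 induced and 9 untreated fragments, and Gapdh at its transcript end.

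Repeated CCAAT boxes were also counted after the strongest sites had been seen. At least 4 copies were in 7 of 204 promoters with a kept summit (3.43%), those of Acaa1a, Ankrd54, Eif2ak3, Rrbp1, Ska2, Stip1 and Tspyl2. The share was 4.41% of 635 promoters with an induced-only summit, 0.877% of 114 with an untreated-only summit (1 promoter) and 1.26% of all 21045 promoters. The YY1 letters AAGATGGCG stood in 1.96% of kept promoters, 11.4% of 114 untreated-only promoters (6.79 to 18.5) and 1.84% of all promoters. By chromosome the kept share of gene-end peaks ran between 38.9% on chromosome 16 (7 of 18) and 80.0% on chromosome 15 (24 of 30).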
